A study of Mus musculus with 32 samples.

Results

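The genes described here are 41 mouse orthologues of genes on human chromosome 21 that neither aneuploid genotype of the study carries in an additional copy. They were chosen by orthologue position, with earlier results of these data known. They are not all such orthologues of their blocks. A further 17 are listed near the end of these results, among them Cbs, which fell in both aneuploid genotypes. Of the 55401 genes in the count table, 29 members lie on mouse chromosome 10 (GRCm38, between 76207222 and 78464975) and 12 on chromosome 17 (between 30954640 and 32062865), and all 41 symbols were found. A filter on low counts left 36 members for testing, 27 on chromosome 10 and 9 on chromosome 17, among 16042 genes tested.

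The 32 libraries were made from cerebral cortex RNA, each from a different mouse, at an age of 6 weeks. The 12 euploid controls (+/+) were 6 females and 6 males. The 10 Ts65Dn;Df(17)2 animals, 5 of each sex by label, combine the freestanding additional chromosome of Ts65Dn with the deficiency Df(17)2. The 10 Dp(16)1/Df(16)8 animals, 5 of each sex by label, combine a duplication within chromosome 16 with the deficiency Df(16)8. As background, each deficiency takes back to the normal dose genes that 1 line would otherwise gain and the other would not, so that both genotypes have an additional copy of nearly the same chromosome 16 genes. All cells of an animal carry its genotype, and no transgene or Cre driver is labelled. Both aneuploid groups were compared with the same +/+ animals, so their 2 contrasts are not independent.

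People with an additional chromosome 21 have an additional copy of nearly all of its genes, but in the mouse the orthologous genes are split over blocks on chromosomes 16, 17 and 10. The chromosome 16 block is the one that mouse lines such as Ts65Dn and Dp(16)1 add, and the chromosome 10 and 17 blocks stay at the normal copy number. A gene that gains a copy is in general transcribed in proportion to its dose. The members have varied roles, including collagens of the extracellular matrix, the centrosome scaffold Pcnt, the RNA editing enzyme Adarb1, enzymes of glycolysis and vitamin metabolism, and factors of ribosome assembly.

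Libraries held 5795479 to 11189548 counts. The Xist and Y-linked counts of Dp(16)1/Df(16)8 replicate 2, labelled female, went against its label, and it was kept as labelled in the tests. The 12 markers of excitatory cortical neurons were all detected, and the score formed by the mean of their log2 CPM (normalised counts, scaled so that libraries of any depth compare) lay at 6.10 to 7.06 in +/+, 5.88 to 6.77 in Ts65Dn;Df(17)2 and 5.90 to 7.11 in Dp(16)1/Df(16)8. All 15 markers of striatal neurons were also tested, with scores of 3.03 to 7.41 in +/+, 5.20 to 7.30 in Ts65Dn;Df(17)2 and 3.46 to 7.44 in Dp(16)1/Df(16)8. The libraries labelled cortex therefore differed widely in striatal transcripts, also among +/+ animals. In such bulk tissue, fewer cells of a type and less RNA per cell cannot be told apart.

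The members stayed near the euploid level in both aneuploid genotypes. Per animal, the median over the 36 tested members of the fold against +/+ animals of the same sex was 1.01 ± 0.034 (SD, n = 12) in +/+, 1.03 ± 0.038 (SD, n = 10) in Ts65Dn;Df(17)2 and 1.00 ± 0.040 (SD, n = 10) in Dp(16)1/Df(16)8. The animals of the 3 genotypes overlapped, with values of 0.973 to 1.10, 0.967 to 1.10 and 0.935 to 1.05. The same median over 77 tested genes of the chromosome 16 segment that is in an additional copy was 1.47 to 1.54 in the Ts65Dn;Df(17)2 animals and 1.47 to 1.55 in the Dp(16)1/Df(16)8 animals.

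**Figure D1:**
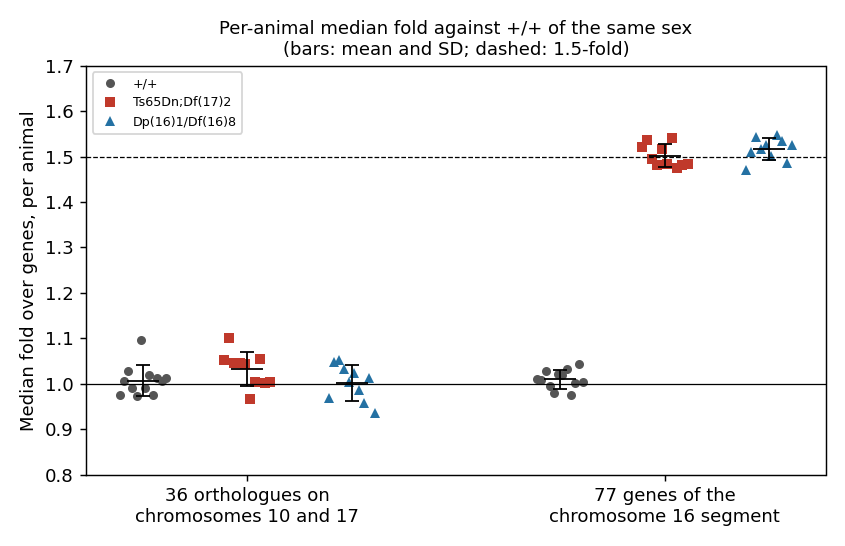
Median fold per animal against +/+ animals of the same sex, over the 36 tested orthologues on chromosomes 10 and 17 (left) and 77 genes of the chromosome 16 segment (right); each point is an animal, bars give the mean and SD, and the dashed line is 1.5-fold. The 3 genotypes overlap near 1 for the orthologues, whereas all aneuploid animals are at 1.47 or above for the chromosome 16 segment.

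Against +/+, 1 of the 36 members passed in Ts65Dn;Df(17)2 (edgeR quasi-likelihood test, Benjamini-Hochberg adjusted p under 0.05), namely Pcnt, which fell; 3.97% of all tested genes passed in that contrast. Fold changes of the members were above 1 for 22 and below 1 for 14, with a median log2 fold change of 0.02, against 0.00 over all genes. At an unadjusted p under 0.05 there were 9 members, or 25%, beside 21.8% of all genes. In Dp(16)1/Df(16)8, 0 members passed by edgeR, and 0 by DESeq2 and limma voom, where 0.573% of all genes passed by edgeR. In that contrast 21 members were above 1 and 15 below, the median log2 fold change was 0.04, and 3 members, or 8.33%, had an unadjusted p under 0.05 beside 12.8% of all genes. The share of members past each threshold was near or below that of all genes. For no member were the animals of an aneuploid genotype and of +/+ completely separated. How often such separation occurred among all tested genes was not counted, so whether the members differ from other genes in this cannot be told.

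Most members were also well below the fold that an additional copy gives. When each contrast was tested against 1.5-fold in place of 1, 34 of 36 members were below it in Ts65Dn;Df(17)2, where 87.5% of all tested genes were. The same number, 34 of 36, were below it in Dp(16)1/Df(16)8, beside 89.1% of all genes. In each genotype the exceptions were the collagen genes Col6a1 and Col18a1, whose estimates had wide intervals. In the chromosome 16 segment, by comparison, 12 of 77 tested genes were below 1.5-fold and 11 above it in Ts65Dn;Df(17)2, and 10 below and 4 above in Dp(16)1/Df(16)8.

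**Figure D2:**
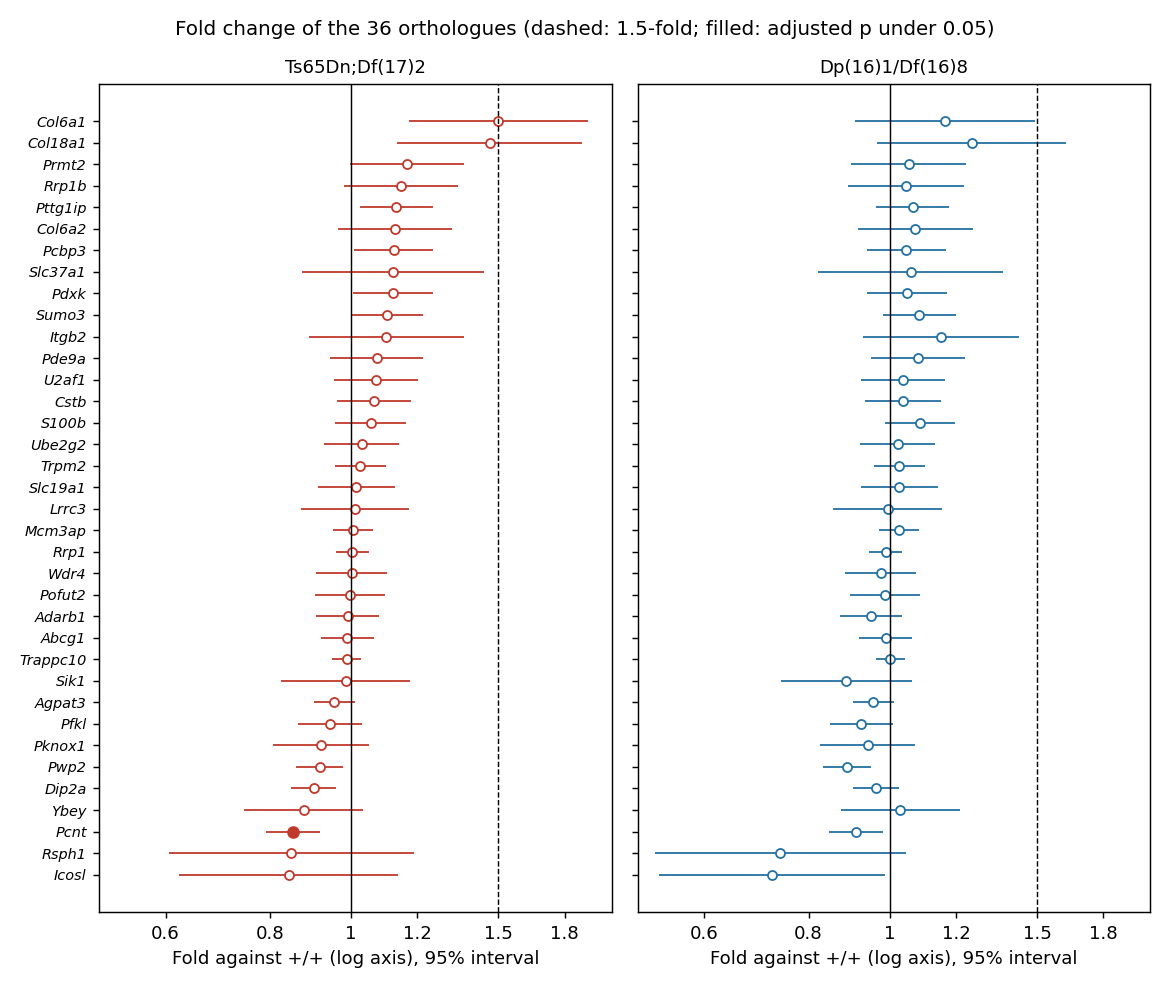
Fold change against +/+ of each tested orthologue in Ts65Dn;Df(17)2 (left) and Dp(16)1/Df(16)8 (right), on a log axis, with 95% intervals; the solid line is 1, the dashed line 1.5, and a filled point marks an adjusted p under 0.05. Pcnt in Ts65Dn;Df(17)2 (0.851-fold) is the only filled point, and Col6a1 and Col18a1 have the highest folds in that genotype.

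Of the 10 members with roles in the nucleus, centrosome, membrane traffic or protein modification, 8 were tested, and 1 fell in Ts65Dn;Df(17)2. Pcnt (ENSMUSG00000001151.10, chromosome 10, 76351263 to 76442786) encodes pericentrin, a scaffold of the pericentriolar material that anchors microtubule nucleation. Its lowest, median and highest values were 51.9, 58.3 and 65.4 CPM in +/+, 46.0, 49.6 and 56.4 CPM in Ts65Dn;Df(17)2, and 47.9, 51.2 and 63.0 CPM in Dp(16)1/Df(16)8. All 10 Ts65Dn;Df(17)2 animals lay below the +/+ mean, although the ranges overlapped. The means were 49.8 ± 3.10 CPM (SD, n = 10) in Ts65Dn;Df(17)2 and 58.6 ± 4.59 CPM (SD, n = 12) in +/+, a fold of 0.851 (95% interval 0.791 to 0.917, log2 -0.23, SE 0.052, adjusted p = 0.0121). In Dp(16)1/Df(16)8 the mean was 53.4 ± 5.56 CPM (SD, n = 10) and the fold 0.912 (95% interval 0.847 to 0.982, adjusted p = 0.289), which did not pass. Each library held 307 to 583 counts of Pcnt. With the striatal marker score as a term in the model, the log2 fold change of Pcnt in Ts65Dn;Df(17)2 was -0.15 and no longer passed (adjusted p = 0.137), whereas it passed with each of the 32 libraries left out in turn (adjusted p from 0.00489 to 0.0285).

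Dip2a (ENSMUSG00000020231.15, chromosome 10, 76259429 to 76345291) encodes a member of the disco-interacting protein family and is the neighbour of Pcnt. It ranged over 102 to 122 CPM in +/+ (median 109), 91.2 to 111 CPM in Ts65Dn;Df(17)2 (median 99.3) and 91.1 to 122 CPM in Dp(16)1/Df(16)8 (median 108). The Ts65Dn;Df(17)2 animals were mostly low, 9 of 10 being below the +/+ mean. The fold was 0.902 in Ts65Dn;Df(17)2 (95% interval 0.847 to 0.960, adjusted p = 0.0516) and 0.962 in Dp(16)1/Df(16)8 (adjusted p = 0.613), so neither passed. The first passed with 12 of the 32 libraries left out, and with RLE factors, with only the 2 genotypes in the fit and with DESeq2. With the striatal score as a term its log2 fold change was -0.09 (adjusted p = 0.358). Prmt2, a protein arginine methyltransferase gene, was at 1.17-fold in Ts65Dn;Df(17)2 (95% interval 0.997 to 1.36) and at 1.05-fold in Dp(16)1/Df(16)8. Sumo3, a small ubiquitin-like modifier, was at 1.10-fold and 1.09-fold, and the ubiquitin-conjugating enzyme Ube2g2, which serves degradation at the endoplasmic reticulum, at 1.03-fold and 1.02-fold. Trappc10, a subunit of a vesicle tethering complex, had the narrowest intervals of the set, with folds of 0.988 (95% interval 0.950 to 1.03) and 1.00 (95% interval 0.963 to 1.04). Rsph1, a radial spoke protein of motile cilia, was at 0.848-fold and 0.740-fold with intervals that included 1, and the homeobox gene Pknox1 at 0.920-fold and 0.941-fold.

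The stretches just upstream of Pcnt and Dip2a are shown because these neighbours had the smallest p among the members lower in Ts65Dn;Df(17)2. Each is the 250 bases before the gene's start in RefSeq on GRCm38.p6, 5′ to 3′ on the minus strand: Pcnt at chr10:76442913-76443162 and Dip2a at chr10:76345292-76345541. The Dip2a stretch ends at the gene position given above, whereas the RefSeq start of Pcnt lies 126 bases upstream of the position given for that gene. Capitals mark matches on either strand to GGGCGG or CCAAT or TATAAA, the common letters of a GC box, a CCAAT box and a TATA box, and no match overlapped another.
Pcnt: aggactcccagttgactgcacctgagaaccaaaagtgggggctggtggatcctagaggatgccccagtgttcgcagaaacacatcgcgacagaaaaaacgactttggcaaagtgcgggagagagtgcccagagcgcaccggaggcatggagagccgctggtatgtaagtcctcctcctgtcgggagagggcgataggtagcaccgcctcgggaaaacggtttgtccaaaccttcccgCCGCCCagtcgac
Dip2a: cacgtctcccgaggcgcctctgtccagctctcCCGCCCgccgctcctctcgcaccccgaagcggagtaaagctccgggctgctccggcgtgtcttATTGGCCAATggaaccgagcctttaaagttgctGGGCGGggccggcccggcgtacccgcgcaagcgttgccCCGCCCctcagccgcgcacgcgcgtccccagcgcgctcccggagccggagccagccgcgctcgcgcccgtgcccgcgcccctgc
The Dip2a stretch held 3 matches to GGGCGG and 2 to CCAAT, and the Pcnt stretch 1 match to GGGCGG. Neither window held TATAAA. Of 32851 windows of the same length at RefSeq starts, 32.7% held GGGCGG, 33.8% CCAAT and 12.4% TATAAA. The share of G and C was 74.4% for Dip2a and 58.8% for Pcnt, against a median of 52.4%. These matches describe letters only.

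Of the 9 members that act outside the cell or at its surface, 7 were tested, and 0 passed in either genotype by edgeR. In Ts65Dn;Df(17)2, 6 of the 7 were above 1, with a median fold of 1.13, and in Dp(16)1/Df(16)8 5 were, with a median of 1.07. Col6a1 (ENSMUSG00000001119.7, chromosome 10, 76708792 to 76726168), a chain of collagen VI in the extracellular matrix, had lowest, median and highest values of 40.5, 68.9 and 113 CPM in +/+, 73.9, 106 and 134 CPM in Ts65Dn;Df(17)2, and 41.0, 80.5 and 121 CPM in Dp(16)1/Df(16)8. All 10 Ts65Dn;Df(17)2 animals were above the +/+ mean, but the +/+ animals were spread widely and reached into their range. Means were 105 ± 19.8 CPM (SD, n = 10) and 69.9 ± 23.1 CPM (SD, n = 12), a fold of 1.5 (95% interval 1.17 to 1.92, log2 0.58, SE 0.17, adjusted p = 0.0507), which missed the threshold. It passed with 8 of the 32 libraries left out in turn, with only the 2 genotypes in the fit, and with DESeq2 and limma voom, while with the striatal score as a term its log2 fold change was 0.24 (adjusted p = 0.270). In Dp(16)1/Df(16)8 the fold was 1.17 (95% interval 0.908 to 1.49), and 0.996 with the score as a term.

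Col18a1 (ENSMUSG00000001435.15, chromosome 10, 77052178 to 77166548), which encodes the basement membrane collagen from which endostatin is cut, was at 3.20 to 10.3 CPM in +/+ (median 5.65), 3.38 to 12.03 CPM in Ts65Dn;Df(17)2 (median 9.25) and 3.54 to 9.97 CPM in Dp(16)1/Df(16)8 (median 7.43). The 3 ranges overlapped almost throughout. Its folds were 1.46 (95% interval 1.14 to 1.89, adjusted p = 0.0712) and 1.254 (95% interval 0.967 to 1.63, adjusted p = 0.455). Neither passed by edgeR over all libraries, although the first did in some fits with a library left out, among them that without +/+ replicate 11. Markers of meningeal and fibroblast cells, which produce collagens, were above 1 for 10 of 10 genes in Ts65Dn;Df(17)2, with 1 of them past the threshold and a median log2 fold change of 0.29. Their mean score was 2.82 to 4.12 in +/+ and 2.91 to 4.29 in Ts65Dn;Df(17)2, and their part in the values of Col18a1 was not tested within the genotype contrast. Col6a2, a partner chain of Col6a1, was at 1.13-fold (95% interval 0.964 to 1.32) and 1.07-fold. Col6a3, another chain of collagen VI that is not a member, did not pass in either genotype by edgeR. Its means were 9.67 ± 4.13 CPM (SD, n = 12) in +/+, 18.3 ± 7.98 CPM (SD, n = 10) in Ts65Dn;Df(17)2 and 13.8 ± 10.1 CPM (SD, n = 10) in Dp(16)1/Df(16)8.

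Icosl (ENSMUSG00000000732.9, chromosome 10, 78069302 to 78083913), the ligand of the T cell costimulator ICOS, was scarce. It was at 1.51 to 6.30 CPM in +/+ (median 3.11), 1.71 to 6.06 CPM in Ts65Dn;Df(17)2 (median 2.13) and 1.21 to 3.05 CPM in Dp(16)1/Df(16)8 (median 2.49). All 10 Dp(16)1/Df(16)8 animals were below the +/+ mean, and the ranges overlapped. The fold was 0.723 (95% interval 0.530 to 0.987, adjusted p = 0.371) in Dp(16)1/Df(16)8 and 0.842 (95% interval 0.623 to 1.14) in Ts65Dn;Df(17)2. Itgb2, the beta chain of leukocyte integrins and in brain a gene of microglia, was at 1.10-fold and 1.15-fold with intervals that included 1, and with the striatal score as a term at 0.941-fold and 1.06-fold. Pttg1ip, which encodes a protein that binds the securin PTTG1, was at 1.13-fold in Ts65Dn;Df(17)2 (95% interval 1.02 to 1.253, adjusted p = 0.132) with all 10 animals above the +/+ mean, and at 1.07-fold in Dp(16)1/Df(16)8. With the striatal score as a term the first of these was 1.03-fold (adjusted p = 0.776). Lrrc3, a leucine-rich repeat membrane protein gene, was at 1.01-fold and 0.994-fold.

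**Figure D3:**
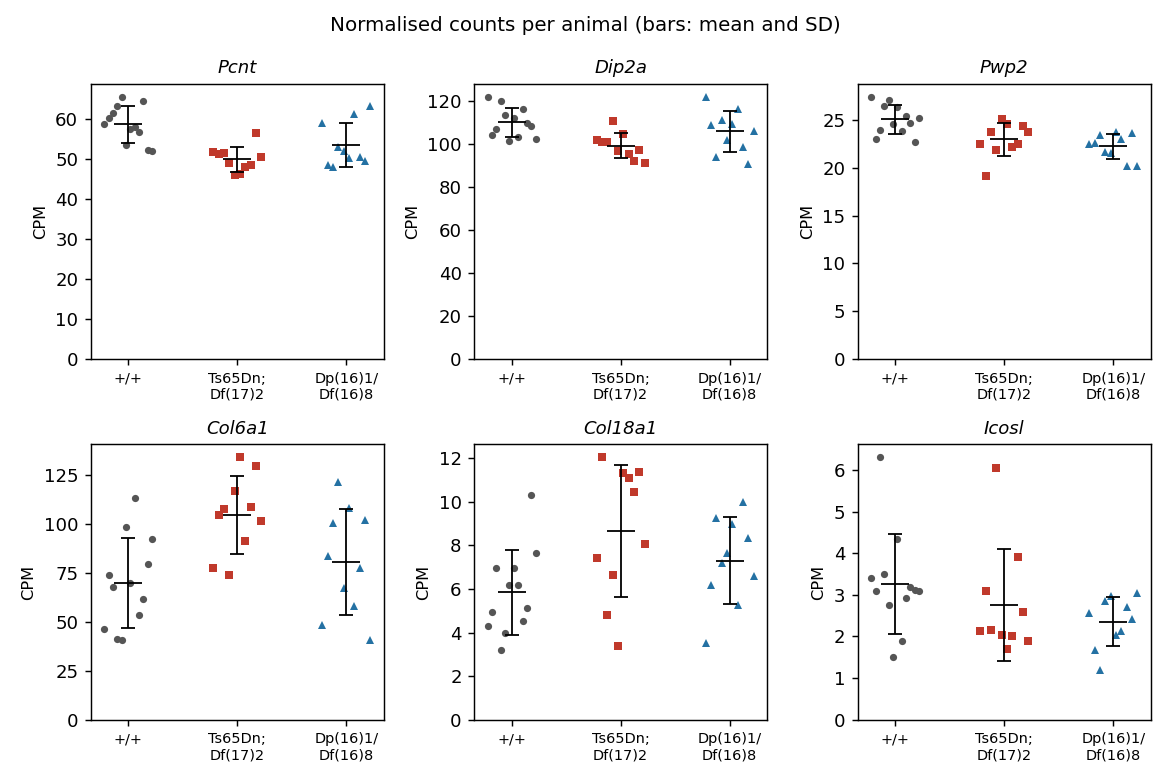
Normalised counts (CPM) in each animal for Pcnt, Dip2a, Pwp2, Col6a1, Col18a1 and Icosl, by genotype; bars give the mean and SD, and each vertical axis starts at 0. Pcnt is at 46.0 to 56.4 CPM in Ts65Dn;Df(17)2 and at 51.9 to 65.4 CPM in +/+, and the genotypes overlap in every panel.

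All 9 members that process RNA or build ribosomes were tested, and 0 passed in either genotype by edgeR. Pwp2 (ENSMUSG00000032834.11, chromosome 10, 78170909 to 78185149), a component of the complex that processes precursors of small subunit ribosomal RNA, was at 22.7 to 27.4 CPM in +/+ (median 24.9), 19.1 to 25.2 CPM in Ts65Dn;Df(17)2 (median 23.1) and 20.2 to 23.8 CPM in Dp(16)1/Df(16)8 (median 22.5). All 10 Dp(16)1/Df(16)8 animals and 9 of 10 Ts65Dn;Df(17)2 animals were below the +/+ mean, within overlapping ranges. The fold was 0.888 in Dp(16)1/Df(16)8 (95% interval 0.832 to 0.949, log2 -0.17, SE 0.046, adjusted p = 0.0956), the smallest p of the set in that contrast, and 0.917 in Ts65Dn;Df(17)2 (95% interval 0.859 to 0.979, adjusted p = 0.106). It passed in Dp(16)1/Df(16)8 only when +/+ replicate 11 was left out (adjusted p = 0.0459). Its value with the striatal score as a term was -0.16 on the log2 scale in Dp(16)1/Df(16)8.

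The other ribosome and RNA genes were close to 1. Rrp1, which acts in ribosomal RNA processing, was at 1.00-fold (95% interval 0.960 to 1.05) and 0.989-fold (95% interval 0.946 to 1.03), and its nucleolar relative Rrp1b at 1.15-fold and 1.05-fold. Adarb1, the adenosine deaminase ADAR2 that edits glutamate receptor transcripts, was at 0.990-fold (95% interval 0.909 to 1.08) and 0.950-fold (95% interval 0.871 to 1.03). Mcm3ap, which acts in messenger RNA export, was at 1.01-fold and 1.03-fold, the splicing factor U2af1 at 1.07-fold and 1.04-fold, the poly(C)-binding protein Pcbp3 at 1.12-fold and 1.05-fold, and the tRNA methylation cofactor Wdr4 at 1.00-fold and 0.976-fold. Ybey, a mitochondrial ribosomal RNA endonuclease, was at 0.878-fold (95% interval 0.745 to 1.03) and 1.03-fold. The exons at the 5′ ends of Ybey and Mcm3ap overlap by 188 bases on opposite strands, and without a stated strand setting reads of this stretch cannot be assigned.

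Of the 9 members with roles in metabolism and transport, 8 were tested, and 0 passed in either genotype by edgeR, with median folds of 1.01 in each. Pfkl, the liver isoform of phosphofructokinase, had folds of 0.944 (Ts65Dn;Df(17)2) and 0.925 (Dp(16)1/Df(16)8). Pdxk, the kinase that activates vitamin B6, was at 1.12-fold (95% interval 1.00 to 1.252, adjusted p = 0.210) and 1.05-fold. Agpat3, an acyltransferase of phospholipid synthesis, was at 0.955-fold and 0.956-fold, with 95% intervals of 0.902 to 1.01 and 0.903 to 1.01. The cholesterol exporter Abcg1 was at 0.990-fold and 0.989-fold, the folate carrier Slc19a1 at 1.01-fold and 1.03-fold, the cathepsin inhibitor Cstb at 1.07-fold and 1.04-fold, and the O-fucosyltransferase Pofut2 at 0.996-fold and 0.987-fold. Slc37a1, a transporter of sugar phosphates, was at 1.12-fold (95% interval 0.874 to 1.44) and 1.06-fold, and 964 of its exon bases overlap an antisense pseudogene that had 417 counts beside 1636 of Slc37a1. All 4 calcium and signalling genes were tested, and 0 passed by edgeR. S100b, a calcium-binding protein abundant in astrocytes, was at 1.06-fold and 1.09-fold, the cation channel Trpm2 at 1.03-fold in each, and the cyclic GMP phosphodiesterase Pde9a at 1.07-fold and 1.08-fold. The salt-inducible kinase Sik1 was at 0.985-fold (95% interval 0.825 to 1.18) and 0.888-fold (95% interval 0.742 to 1.06).

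When the freestanding chromosome was compared directly with the duplication, 0 of 36 members passed by edgeR, and 0 by DESeq2 and limma voom, where 0.0499% of all genes passed by edgeR. No member had an unadjusted p under 0.05 by edgeR, beside 4.10% of all genes. The smallest p belonged to Dip2a, at 0.937-fold in Ts65Dn;Df(17)2 relative to Dp(16)1/Df(16)8 (95% interval 0.878 to 1.001). Col6a1 was next at 1.29-fold (95% interval 0.995 to 1.67), then Ybey at 0.852-fold (95% interval 0.718 to 1.01). Ybey ranged over 5.06 to 7.62 CPM in +/+, 2.97 to 7.96 CPM in Ts65Dn;Df(17)2 and 5.42 to 9.96 CPM in Dp(16)1/Df(16)8, with medians of 6.55, 5.66 and 6.25. These intervals include 1 but do not show that the genotypes were alike.

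Members were also compared between sexes. Between males and females 0 of 36 members passed by edgeR, where 0.0748% of all genes did, and 2 had an unadjusted p under 0.05, beside 9.94% of all genes. These were Pde9a, at 15.9 ± 1.58 CPM (SD, n = 16) in males and 13.6 ± 2.47 CPM (SD, n = 16) in females by label (adjusted p = 0.426), and Col18a1, at 8.26 ± 2.33 and 6.10 ± 2.38 CPM (adjusted p = 0.433). For the interaction of genotype and sex, 0 members passed by edgeR, where 0% of all genes did, and 2 members, Pde9a and Prmt2, had an unadjusted p under 0.05 (adjusted p = 0.996 for each), beside 4.22% of all genes. Without the library whose sex transcripts went against its label, 1 member had such a p in the interaction, beside 4.07% of all genes.

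Levels per length of transcript (CPM per kilobase of exon, RPKM) differed widely among the tested members in +/+ cortex. Rrp1 was highest at 49.6 ± 2.19 RPKM (SD, n = 12), then S100b at 38.2 ± 2.83, Pdxk at 33.6 ± 4.12, Agpat3 at 29.9 ± 1.65, Adarb1 at 20.2 ± 1.81 and Sumo3 at 18.8 ± 2.75 RPKM. Adarb1 and Sumo3 did not differ beyond their spread. The lowest tested members were Itgb2 at 0.992 ± 0.283, Col18a1 at 0.834 ± 0.278, Icosl at 0.705 ± 0.260 and Slc37a1 at 0.545 ± 0.170 RPKM, and neighbours in this order overlapped. In CPM, Rrp1 was at 155 to 179 in +/+, 150.5 to 173 in Ts65Dn;Df(17)2 and 144 to 172 in Dp(16)1/Df(16)8, and S100b was at 50.7 to 63.3, 47.1 to 67.9 and 46.3 to 72.5. These abundant members overlapped in all genotypes.

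**Figure D4:**
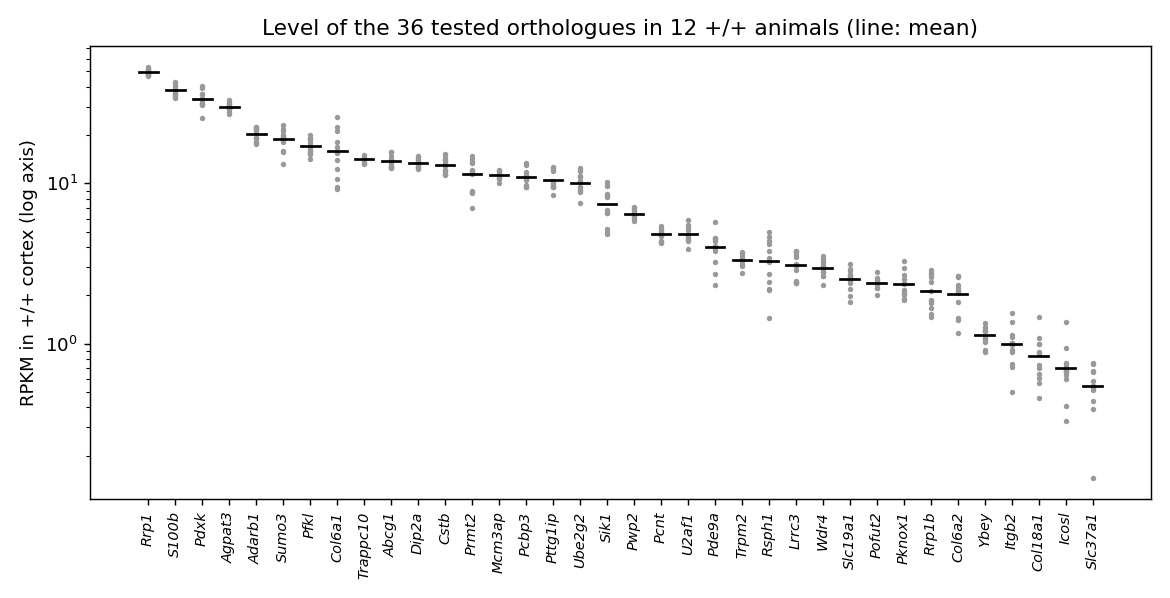
Level of each tested orthologue in the 12 +/+ animals, in RPKM on a log axis; grey points are animals and black lines are means. Rrp1 is highest at a mean of 49.6 RPKM and Slc37a1 lowest at 0.545 RPKM.

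The spread between +/+ animals also differed among members. The coefficient of variation of CPM ran from 3.57% for Trappc10 to 36.8% for Icosl, with a median of 12.4%. It was under 10% for 12 of the 36 members and over 25% for 7. Rrp1 (4.42%), Mcm3ap (5.39%) and Agpat3 (5.50%) were among the steadiest, and Rsph1 (34.05%), Col18a1 (33.3%), Col6a1 (33.1%) and Slc37a1 (31.2%) among the most variable. Icosl and Slc37a1 rest on few counts, whereas Col6a1 had 242 to 1039 counts in each library.

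The 5 members that were not tested were close to or below the limit of detection. Ftcd, an enzyme of folate and histidine breakdown known from liver, had 0 counts in the 12 +/+ libraries, which allows a level of up to 0.0335 CPM (3 counts over the group), and 5 counts in all 32. Spatc1l had 6 counts in all and 0 in Dp(16)1/Df(16)8, which allows up to 0.0407 CPM. Tmprss3, a serine protease known from the inner ear, had 4 counts in +/+, 6 in Ts65Dn;Df(17)2 and 16 in Dp(16)1/Df(16)8, with at most 3 in a library. Hsf2bp, a gene known from meiosis, had 14, 10 and 13 counts and shares 54 exon bases with Rrp1b on the other strand, and Umodl1 had 34, 25 and 28 counts. In a fit without the filter none of these 5 passed by edgeR in any contrast, and 3 had an unadjusted p under 0.05 in at least 1: Ftcd in Ts65Dn;Df(17)2 against +/+ (adjusted p = 0.307), Tmprss3 in Dp(16)1/Df(16)8 against +/+ (adjusted p = 0.367), and Tmprss3 and Spatc1l between the aneuploid genotypes (adjusted p = 0.794 for each). These limits cover counting error only.

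Within genotypes, members varied between animals together with the striatal marker score. With genotype and sex in the model, the slope on that score passed for 15 of 36 members, 11 upward and 4 downward (edgeR quasi-likelihood test, adjusted over all genes), while it passed for 27.5% of all tested genes. Col6a1 had the steepest slope, 0.31 on the log2 scale per unit of score (SE 0.032, adjusted p = 2.87e-09). Sumo3 followed at 0.12 (SE 0.015, adjusted p = 3e-07), Pttg1ip at 0.12 (SE 0.016, adjusted p = 1.16e-06) and Pdxk at 0.11 (SE 0.019, adjusted p = 2.54e-05) in order of p. The other members with an upward slope were S100b, Adarb1, Itgb2, Ube2g2, Rrp1, Abcg1 and Rrp1b. Pcnt had a slope of -0.06 (adjusted p = 0.00155) and Dip2a of -0.05 (adjusted p = 0.00829), and Pfkl and Icosl also sloped downward. In the 12 +/+ libraries alone 6 of 36 members passed, beside 10.8% of the 13773 genes tested there, all upward: Col6a1, Itgb2, Pttg1ip, Sumo3, Ube2g2 and Rrp1b.

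**Figure D5:**
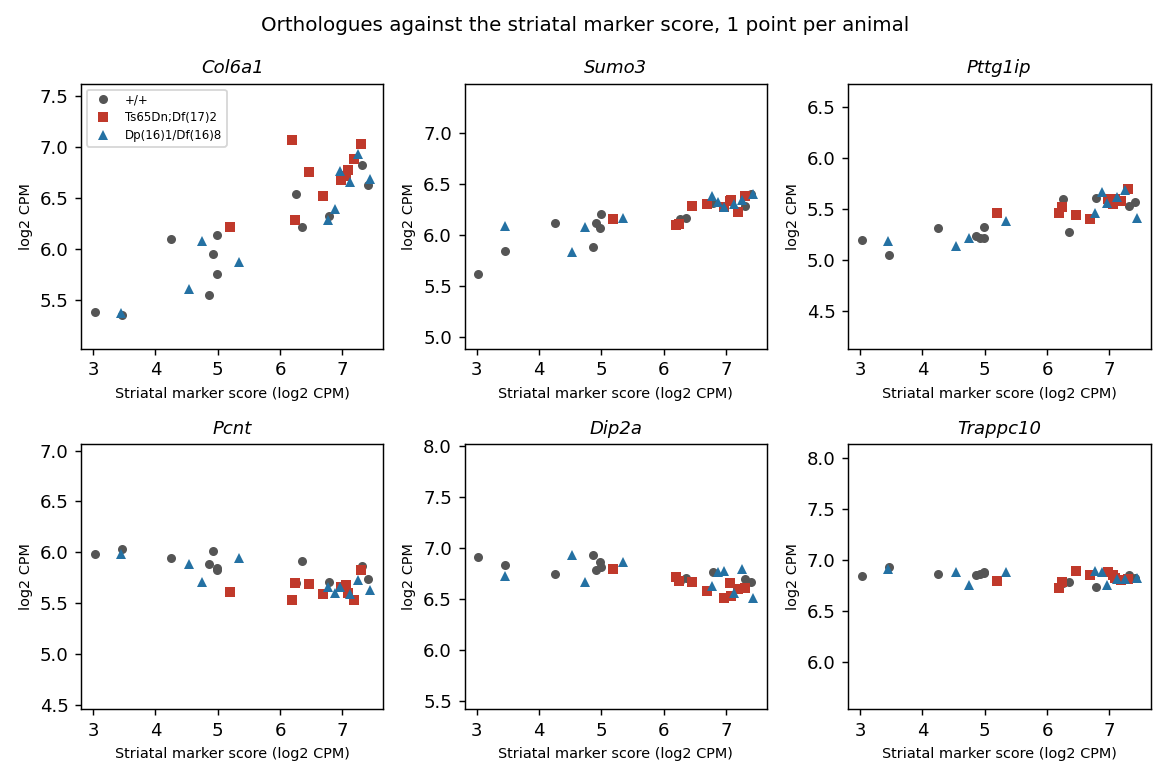
log2 CPM of 6 orthologues against the striatal marker score (mean log2 CPM of 15 markers), 1 point per animal, coloured by genotype; each vertical axis spans the same log2 range. Col6a1 climbs most along the score (slope 0.31), Pcnt and Dip2a decline slightly (slopes -0.06 and -0.05), and Trappc10 is shown as the member with the smallest spread.

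The same score was higher on average in both aneuploid genotypes, with overlapping ranges and no marker past the threshold. In Ts65Dn;Df(17)2, 15 of 15 striatal markers were above the +/+ level and 0 passed by edgeR, with a median log2 fold change of 0.77, and in Dp(16)1/Df(16)8 15 of 15 were above with a median of 0.54. Of the 12 excitatory cortical neuron markers, 6 passed downward in Ts65Dn;Df(17)2 and 0 in Dp(16)1/Df(16)8 by edgeR. All 12 had an unadjusted p under 0.05 in Ts65Dn;Df(17)2, and 3 had in Dp(16)1/Df(16)8. In each genotype 10 were below 1 and 2 above, up to 1.57-fold in Ts65Dn;Df(17)2. Of the 10 astrocyte markers, 3 passed downward in Ts65Dn;Df(17)2 and 1 in Dp(16)1/Df(16)8, and 7 had an unadjusted p under 0.05 in each. In the same order, 6 and 8 astrocyte markers were below 1, and 4 and 2 above. Of the 10 interneuron markers, 1 passed upward in Ts65Dn;Df(17)2 and 0 in Dp(16)1/Df(16)8 by edgeR, with 8 and 3 at an unadjusted p under 0.05. In the same order, 7 and 8 interneuron markers were above 1, and 3 and 2 below. The part of the cortical neuron, astrocyte and interneuron markers in the genotype contrasts of the members was not tested. With the striatal score as a term, the member counts were 0 in Ts65Dn;Df(17)2 and 0 in Dp(16)1/Df(16)8, where 0.929% and 0.598% of all genes passed. The members at an unadjusted p under 0.05 were then 7 and 3, or 19.4% and 8.33%, beside 12.97% and 10.9% of all genes. The fold of 9 members moved to the other side of 1 in Ts65Dn;Df(17)2 and that of 4 in Dp(16)1/Df(16)8, and the median log2 fold change of members in Dp(16)1/Df(16)8 was -0.0044.

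Scores of other cell types were related in part to the same members. All members that passed on the microglia score or the endothelial and mural score also passed on the striatal score, in the same direction. So did S100b, Adarb1 and Pfkl on the oligodendrocyte score, whereas the members that passed on the meningeal and fibroblast score did not. The slope on the meningeal and fibroblast score passed for 4 members, where 9.03% of all genes passed: Prmt2 (0.43, SE 0.10, adjusted p = 0.0065), Col18a1 (0.67, SE 0.18, adjusted p = 0.0159) and Slc37a1 (0.62, SE 0.17, adjusted p = 0.0216) upward, and Agpat3 (-0.15, SE 0.038, adjusted p = 0.0125) downward. On the microglia score 8 members passed beside 17.2% of all genes, with Col6a1, Pdxk, Sumo3 and the leukocyte integrin Itgb2 having the smallest p; Itgb2 sloped by 1.59 on the log2 scale per unit of score (SE 0.37, adjusted p = 0.0035). On the endothelial and mural score 3 passed beside 10.4% of all genes, Col6a1 and Adarb1 upward and Pfkl downward. On the oligodendrocyte score 7 passed beside 14.2% of all genes. Agpat3 (0.15, SE 0.029, adjusted p = 5.49e-04), S100b (0.24, SE 0.053, adjusted p = 0.00174), Adarb1 and Pknox1 rose along it, and Pfkl, Pde9a and Lrrc3 fell. On the astrocyte score 0 members passed by edgeR, beside 0.337% of all genes. The scores share libraries and some vary together, and each slope is an association between animals.

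Prmt2 ranged over 23.7 to 50.3 CPM in +/+ (median 40.2), 35.7 to 55.7 CPM in Ts65Dn;Df(17)2 (median 45.7) and 30.9 to 50.3 CPM in Dp(16)1/Df(16)8 (median 41.3). Sumo3 was at 48.6 to 84.2, 68.1 to 83.2 and 56.5 to 84.3 CPM in the same order, and Pdxk at 137 to 219, 178 to 229 and 149 to 244 CPM. For all 3 genes the Ts65Dn;Df(17)2 animals lacked the lowest values seen in +/+. Agpat3 was at 211 to 257, 197 to 234 and 193 to 252 CPM, Adarb1 at 197 to 253, 178 to 264 and 182 to 243 CPM, and Pfkl at 94.1 to 133, 91.3 to 125 and 90.01 to 125 CPM. These 3 overlapped across genotypes throughout. Pttg1ip was at 32.96 to 48.7, 42.2 to 51.8 and 34.9 to 51.3 CPM, Itgb2 at 1.52 to 4.74, 2.49 to 4.58 and 2.44 to 5.03 CPM, and Slc37a1 at 1.68 to 8.83, 5.75 to 9.65 and 3.17 to 10.6 CPM.

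Other genes of the same orthologous blocks and gene families were compared in the same way. Of 17 further human chromosome 21 orthologues listed for the chromosome 10 and 17 blocks, 14 were in the table and 6 were tested. Cbs, the cystathionine beta-synthase of chromosome 17, was the 1 that passed. That is 1 of 6 in each genotype, where 3.97% of all tested genes passed in Ts65Dn;Df(17)2 and 0.573% in Dp(16)1/Df(16)8. Cbs was at 12.2 to 19.2 CPM in +/+, 9.21 to 17.5 CPM in Ts65Dn;Df(17)2 and 9.15 to 15.5 CPM in Dp(16)1/Df(16)8, and fell to 0.738-fold (adjusted p = 0.0127) and 0.717-fold (adjusted p = 0.00989). With the striatal score as a term it still passed in each (adjusted p = 0.0222 and 0.00921). The enzyme is known to be enriched in astrocytes. Of the 10 astrocyte markers, 3 and 1 passed downward in the same genotypes, while 4 and 2 were above 1. Their median folds were 0.889 and 0.930, and their part in the values of Cbs was not tested. Of 38 listed paralogues and partners of members, 36 were tested. By edgeR 1 rose and 1 fell in Ts65Dn;Df(17)2, and 0 passed in Dp(16)1/Df(16)8, beside the same shares of all genes. In each genotype 6, or 16.7%, had an unadjusted p under 0.05, beside 21.8% and 12.8% of all genes in the same order. Adarb2, the relative of Adarb1 without known editing activity, rose 1.38-fold in Ts65Dn;Df(17)2 (40.6 ± 5.70 against 29.5 ± 5.28 CPM, SD, n = 10 and 12, adjusted p = 0.00618). Pknox2, the relative of Pknox1, fell to 0.807-fold (51.0 ± 5.47 against 63.2 ± 8.80 CPM, adjusted p = 0.0259). With the striatal score as a term Adarb2 was at 1.29-fold (adjusted p = 0.0535) and Pknox2 at 0.861-fold (adjusted p = 0.206), and neither passed.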

How the data were processed

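Whole-number counts per gene, not normalized, were deposited by the authors for 32 libraries. The submitters' processing notes name STAR 2.7.9a, Subread 1.6.4 with featureCounts, bcl2fastq 2.20 and the builds GRCh38 and GRCm38.p6. How each build served, the annotation release and the strand setting are not given in the sources used here. The members and lists were chosen with earlier results of these data known.

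Genes were filtered with filterByExpr, scaled by TMM factors and fitted to genotype and sex over all libraries with edgeR 4.0.16 (R 4.3.3), and the quasi-likelihood F test was adjusted over 16042 genes (Benjamini-Hochberg, threshold 0.05). The fold of 1.5 was tested by an offset, and marker scores were added as slopes. Scores are mean log2 CPM (prior count 2). Intervals are 95%. DESeq2 1.42.0 and limma 3.58.1 (voom) were alternatives, as were RLE factors, other filters and each library left out. Scripts were tested on simulated data. Exon lengths and positions come from GRCm38. All members were accounted for. Value ranges were given for members that passed, the 3 of smallest p per genotype contrast, the 6 highest and 4 lowest levels, and up to 4 per slope.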

Additional observations from a re-analysis of the deposited data

Results flagged for a closer look

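In groups of 10 animals, the highest or lowest value was set apart where its gap to the nearest other exceeded the 95% critical value of Dixon's test. This was applied to 18 named members in the 2 aneuploid genotypes, 36 groups in all, and 4 were set apart, where chance sets apart about 1 group in 20. Ts65Dn;Df(17)2 replicate 9 had 56.4 CPM of Pcnt, above the other 9 animals at 46.0 to 51.6 CPM. Ts65Dn;Df(17)2 replicate 4 had 6.06 CPM of Icosl, beside 1.71 to 3.90 CPM. Dp(16)1/Df(16)8 replicate 9 had 9.96 CPM of Ybey, beside 5.42 to 7.04 CPM. Dp(16)1/Df(16)8 replicate 10 had 144 CPM of Rrp1, beside 160.4 to 172 CPM.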

How the results depend on the processing

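None of the counts or of the folds of the 3 members of smallest p in each contrast turned direction under the alternatives run. Over all 36 members, the striatal score as a term turned the fold of 9 in Ts65Dn;Df(17)2 (Icosl from 0.842 to 1.02, S100b from 1.06 to 0.993, Itgb2 from 1.10 to 0.941), of 4 in Dp(16)1/Df(16)8 (Col6a1 from 1.17 to 0.996) and of 4 between the aneuploid genotypes. Each other alternative, and each library left out, turned at most 5, all within 1.06-fold of 1 as reported. Of the counts and the per-animal median folds together, 130 comparisons with an alternative stayed the same and 26 did not. A count stayed the same if it was within 1.5 times, and a median fold if its mean moved by less than the SD of the genotype. The number of members that passed in Ts65Dn;Df(17)2 against +/+, 1 as reported beside 637 of all genes, was 2 with RLE factors (634 of all genes), 0 with the striatal score as a term (149), 3 with only the 2 genotypes in the fit (909), 4 with DESeq2 (1069), 2 with limma voom (693) and 2 without Ts65Dn;Df(17)2 replicates 4 and 5, the low-numbered animals (280). With 1 library left out it ran from 1 to 4: it was 2 without +/+ replicate 2, Ts65Dn;Df(17)2 replicates 4, 5 or 6 or Dp(16)1/Df(16)8 replicates 3, 9 or 10, 3 without +/+ replicates 6, 8 or 12 or Dp(16)1/Df(16)8 replicates 1, 4 or 7, and 4 without +/+ replicate 11, where 1486 of all genes passed. Pcnt was among them in all 32, and the additions were Dip2a, Col6a1 and Col18a1. In Dp(16)1/Df(16)8 the count ran from 0 to 1, with Pwp2 passing without +/+ replicate 11, where 165 of all genes passed beside 92 as reported. In the +/+ libraries alone, with fewer samples, the slopes passed for 6 members (striatal, beside 10.8% of all genes), 3 (microglia, 4.86%), 0 (oligodendrocyte, 2.78%), 0 (meningeal and fibroblast, 0%) and 0 (endothelial and mural, 0%). Without a filter on low counts 41 members were tested and 1 passed in Ts65Dn;Df(17)2, beside 331 of 32338 genes. No paired analysis was possible because the labels give each animal a number of its own and do not say that neighbouring numbers share a litter or batch. At this depth, genes with few counts such as Icosl and Itgb2 have wide intervals, and differences between genotypes within those intervals cannot be seen.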
